A study of Mus musculus with 6 samples.

Results

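Matrix proteases, the inhibitors that block them and the lysyl oxidases that cross-link collagen were compared between the livers of cGK1-KO and control mice. The product of Prkg1, cGK1 is a kinase that cyclic GMP switches on. The genes were chosen by symbol: Mmp, Timp or Adamts followed by a number, and the lysyl oxidase genes, where an array probe set carried that 1 gene symbol. This gave 48 of the 22180 genes tested, namely 22 MMP, 4 TIMP, 18 ADAMTS and 4 lysyl oxidase genes. Loxl2 did not qualify because its probe sets carry several symbols, and Mmp15 and Adamts2 were not analysed here. The samples were total liver RNA from male C57BL/6N mice aged 2 months, with 3 arrays for each genotype. Per the labels, the knockout mice carry a smooth muscle rescue of the kinase, and the values here do not check that rescue. The labels name neither the promoter that drives it nor a treatment. The labels call the control livers wild type and do not say whether they carry any allele of the rescue.

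Matrix metalloproteases (MMPs) are zinc proteases that cleave collagens, laminins and other proteins outside the cell, and most are secreted or anchored as inactive precursors. Tissue inhibitors of metalloproteases (TIMPs) bind their active site. ADAMTS enzymes are secreted relatives with thrombospondin repeats that cut proteoglycans, procollagens and von Willebrand factor. Lysyl oxidases act in the opposite sense on the matrix, by oxidising lysines of collagen and elastin so that the fibres become cross-linked. In the liver, stellate cells, macrophages and neutrophils are known sources of many of these proteins, and stellate cell activation, which the title of the series names, is a known setting for their change.

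Values are log2 expression from RMA, a method that summarises the probes of a probe set after setting all arrays to a common distribution, on 1 array per sample (3 arrays per group for every value). The median of an array was 3.11 to 3.16. Over the 22180 genes, which are no replicates of each other, control arrays correlated with each other at 0.989 to 0.990 and knockout arrays at 0.978 to 0.983, and knockout replicate 3 correlated better with the controls (0.981 to 0.983) than with the other knockout arrays (0.978 to 0.979). All 9 measured hepatocyte markers lay above the dim limit, defined as the median of all deposited values (3.14), with Alb at 13.3 to 13.4 on the 6 arrays. Prkg1 lay at 3.31, 3.04 and 3.22 in the knockout and at 3.32, 2.97 and 2.95 in the control arrays. The sources used here do not give the deleted part of Prkg1, so this value does not check the labels. Nor do they say whether each array came from its own animal, and what the p-values then capture is the variation of these 6 arrays, technical variation included.

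None of the 48 genes passed an adjusted p of 0.05 in limma (0 of 48, beside 0% of all 22180 genes), and their lowest adjusted p was 0.237. At an unadjusted p under 0.05, 6 genes lay higher in the knockout (Mmp8, Mmp9, Adamts4, Lox, Adamts14 and Adamts17) and 1 lay lower (Adamts8). These 7 genes are 14.6% of the 48, beside 10.5% of all genes. By direction the share of all genes was 5.06% higher and 5.46% lower. Among the 9123 genes with means under the dim limit, 515 were higher and 184 lower. Among the 13057 above it, 607 were higher and 1028 lower. Mmp8, Adamts4, Lox and Adamts8 have means under the limit. A second probe set of Adamts14 and of Adamts8 differed in the opposite direction, and without the 3 genes whose probe sets disagreed in sign (Mmp11 is the third) the split was 5 higher and 0 lower. With the mean of a gene's probe sets it was 5 higher and 1 lower (12.5%, beside 10.4% of all genes), and with the dimmer probe set 6 higher and 0 lower (12.5%, beside 10.3%). Adamts14 and Adamts8 were under 0.05 in neither, while Mmp20 was in the former and Mmp11 in the latter. After a second quantile normalization the split was 8 higher and 3 lower (22.9%, beside 9.99%). Among the 26 genes left by a filter on dim probe sets it was 3 higher and 0 lower (11.5%, beside 14% of all genes left). Without knockout replicate 2 the count was 12 genes, 7 higher and 5 lower (25%, beside 12.3% of all genes), and 5 of the 12 were among the 7. Of the 6 fits that leave out 1 array, Mmp8 stayed under 0.05 in 6, Mmp9 and Adamts4 in 5, Lox and Adamts8 in 3, and Adamts14 and Adamts17 in 2.

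The median difference of the 48 genes, knockout minus control, was 0.06 on the log2 scale, beside 0.0011 for all genes. Of the 48 differences, 30 (62.5%) were above 0, beside 50.2%. These shares depend on the level. For the 22 genes under the dim limit the median was 0.050 with 59.1% above 0, beside 0.054 and 60.8% of all such genes. For the 26 above the limit it was 0.065 with 65.4% above 0, beside -0.040 and 42.8%. Differences of at least 1.5-fold were seen for 2 genes, Mmp8 and Lox, beside 2.92% of all genes. The values of the groups did not overlap for 9 genes (18.8%, beside 16.7% of all genes), 7 higher (beside 7.61%) and 2 lower (beside 9.14%). Without the 3 genes whose probe sets disagreed it was 6 higher and 1 lower, and with the dimmer probe set in their place 7 higher and 1 lower. Of the 48 genes, 26 had a mean over the 6 arrays above the dim limit (54.2%, beside 58.9% of all genes), and 22 lay under it. The 95% interval of the difference stayed within 1.5-fold in either direction for 20 of the 48 genes, beside 64.0% of all genes. For the other 28 the interval reached beyond 1.5-fold in at least 1 direction. The median standard error of the 48 differences, 0.159, was close to that of all genes, 0.156, while the median size of the difference was 0.23 beside 0.14.

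**Figure D1:**
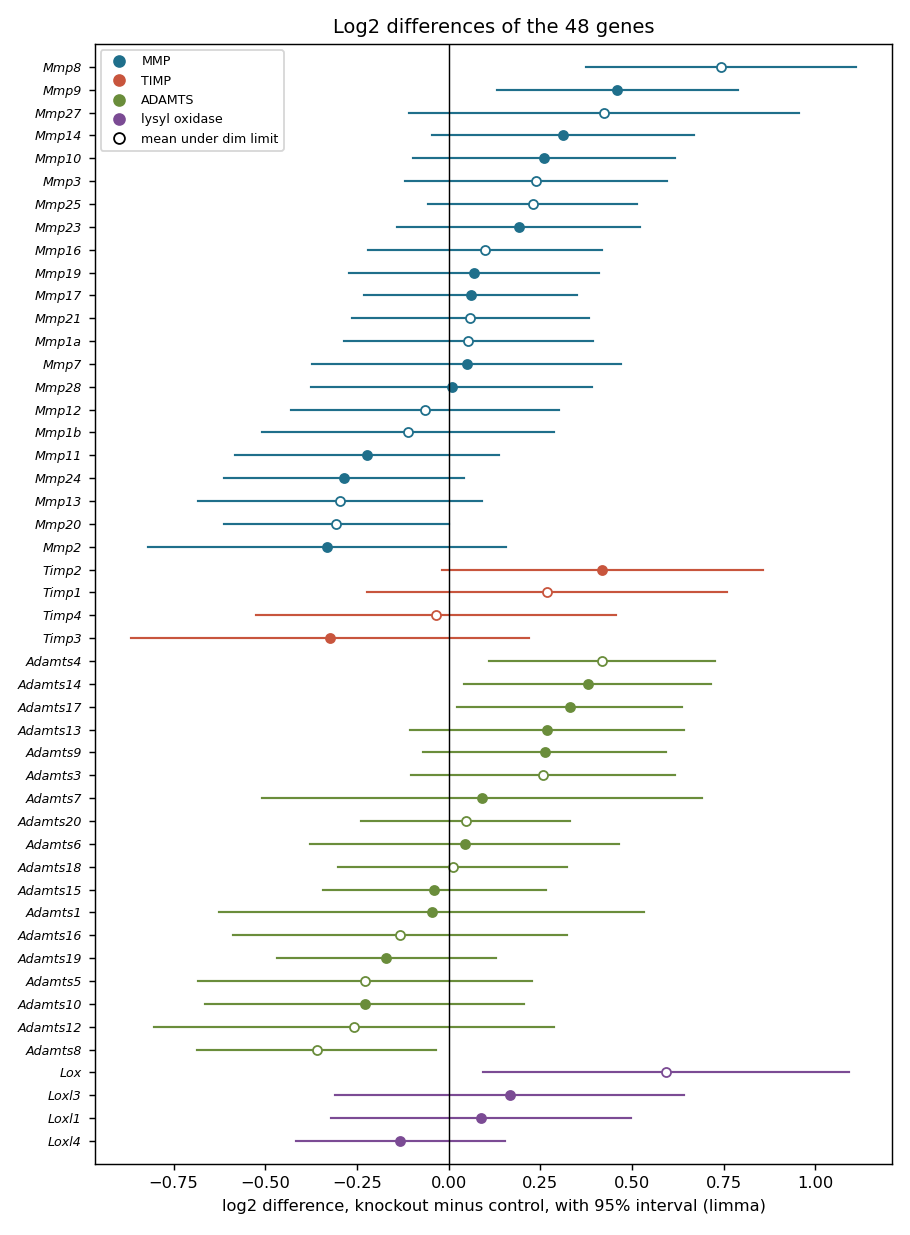
Log2 difference (knockout minus control, x axis) of each of the 48 genes with its 95% interval from limma, coloured by family, with open circles for genes whose mean over the 6 arrays lay under the dim limit of 3.14. The intervals of 7 genes leave out 0, and Mmp8 has the highest difference at 0.74.

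Of the interstitial collagenases, which cut fibrillar collagen across its triple helix, Mmp8 and Mmp13 had differences of opposite sign. Both genes belong to a run of 10 Mmp genes that neighbour each other on chromosome 9, and the bases before their transcription starts are shown because that run holds the highest difference of the 48 genes beside others below 0. The sequences are from RefSeq (GRCm38.p6, plus strand, 250 bases before the start), at chr9:7272264-7272513 for Mmp13 and chr9:7558179-7558428 for Mmp8, and capitals mark matches to the AP-1 motif TGANTCA on either strand.
Mmp13: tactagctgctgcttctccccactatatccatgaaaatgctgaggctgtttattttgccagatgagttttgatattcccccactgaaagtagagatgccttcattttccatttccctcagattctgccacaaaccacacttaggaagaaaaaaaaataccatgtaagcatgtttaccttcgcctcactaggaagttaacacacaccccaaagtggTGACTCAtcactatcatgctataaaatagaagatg
Mmp8: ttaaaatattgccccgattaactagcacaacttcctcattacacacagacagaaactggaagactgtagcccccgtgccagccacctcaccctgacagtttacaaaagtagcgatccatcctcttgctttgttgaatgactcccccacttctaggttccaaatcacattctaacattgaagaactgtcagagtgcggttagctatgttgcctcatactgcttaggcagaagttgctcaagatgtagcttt
The Mmp13 window holds 1 match, 35 bases before the start, and the Mmp8 window holds 0. Among the 48 genes, 31 had such windows (34 windows in all), and 8 windows (23.5%) held the motif, beside 6.75% of 32851 windows in the table. All 8 belong to the chromosome 9 run (Mmp10, Mmp12, Mmp13, Mmp1a, Mmp1b, Mmp20, Mmp3 and Mmp7). Of these, Mmp10, Mmp1a, Mmp3 and Mmp7 had differences above 0, and Mmp12, Mmp13, Mmp1b and Mmp20 had differences below 0. A relation between the motif and the differences was not tested. TATAAA, searched on both strands and unable to overlap an AP-1 match, was in 9 of the 34 windows (26.5%, beside 12.4%), and the NF-kB consensus in 5 (14.7%, beside 7.25%). A match describes the letters and not a bound site.

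Mmp8, the neutrophil collagenase, lay at 3.02, 2.61 and 2.77 in knockout replicates 1 to 3 and at 2.18, 1.81 and 2.18 in control replicates 1 to 3. Every knockout array lay above every control array, and all 6 values were under the dim limit. Its log2 difference was 0.74 (SE 0.16, 1.67-fold, 95% interval 0.37 to 1.11), with an unadjusted p of 0.00134 and an adjusted p of 0.237 in limma. Leaving out any 1 array kept it between 0.62 and 0.84. The equal values of control replicates 1 and 3 recur elsewhere in the deposited table, as do others: 11 of the 288 values of the 48 genes occur there at least 10 times. Among them are the value of Mmp9 in knockout replicate 1 and that of Lox in control replicate 3.

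Mmp13, collagenase 3, lay at 1.72, 1.32 and 1.78 in the knockout and at 2.11, 1.68 and 1.91 in the control arrays, so the groups overlapped. Its difference was -0.30 (SE 0.17, limma adjusted p = 0.577). Mmp1a and Mmp1b, the mouse relatives of collagenase 1, lay between 0.96 and 1.61 on every array, near the bottom of the scale. In the chromosome 9 run, which also holds the stromelysins Mmp3 and Mmp10, matrilysin Mmp7, the macrophage elastase Mmp12, Mmp20 and Mmp27, 6 differences were above 0 and 4 below, with a median of 0.05, and 8 of the 10 genes were dim.

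The gelatinases cut denatured collagen and basement membrane collagen. Mmp9, gelatinase B, which neutrophils store in granules and macrophages secrete, lay at 3.66, 3.87 and 3.58 in the knockout and at 3.05, 3.34 and 3.34 in the control arrays. The knockout values were all above the control values and above the dim limit, and control replicate 1 was the lowest. The difference was 0.46 (SE 0.15, 1.38-fold, 95% interval 0.13 to 0.79, unadjusted p 0.0115, limma adjusted p = 0.346), and leaving out 1 array gave 0.36 to 0.52, with an unadjusted p of 0.0514 in limma without control replicate 1.

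Mmp2, gelatinase A, a product of stellate cells and fibroblasts, lay at 3.42, 3.41 and 3.56 in the knockout and at 4.32, 3.65 and 3.41 in the control arrays. Control replicate 1 stood above the others. The difference was -0.33 (SE 0.22, limma adjusted p = 0.621), and without control replicate 1 it was -0.07, while without control replicate 3 it was -0.52.

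Neutrophil and macrophage markers were set beside these values, because liver RNA is a mixture. In it, a change in the number of cells of a type and a change in RNA per cell cannot be told apart. Of 12 neutrophil markers, 10 differences were above 0 (83.3%, beside 50.2% of all genes) with a median of 0.19. At an unadjusted p under 0.05 were 3 (25%, beside 10.5% of all genes), namely S100a8, Retnlg and Prtn3, all higher. The summed linear level of the 12 was 109 to 117 in the knockout and 90.9 to 95 in the control arrays. Such a sum weighs bright genes most. Prtn3, which had the highest mean of the 12, lay at 4.91, 5.15 and 4.41 in the knockout and at 4.18, 4.16 and 3.89 in the control arrays. A sum without Prtn3 was not made. The differences ran from -0.41 (Camp) to 0.75 (Prtn3). Between them lay Ly6g at -0.01, Ngp at 0.05, Elane at 0.06, Csf3r at 0.07, Ltf at 0.18, S100a9 at 0.21, Mpo at 0.29, Cxcr2 at 0.32, S100a8 at 0.46 and Retnlg at 0.59. Of the 12 genes, 7 were dim. Ly6g, a defining neutrophil marker, lay at 1.95, 1.82 and 2.32 in the knockout and at 2.24, 1.92 and 1.97 in the control arrays.

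Of 12 macrophage and Kupffer cell markers, 12 differences were above 0 (100%, beside 50.2% of all genes) with a median of 0.84. At an unadjusted p under 0.05 were 11 (91.7%, beside 10.5% of all genes), all higher. The summed level of the 12 was 852 to 2078 in the knockout and 641 to 696 in the control arrays. The lists were written with earlier results of these data known. The part of either cell type in the values of Mmp8 and Mmp9 was not tested. Mmp12, the elastase of macrophages, differed by -0.06 and lay at 2.10, 2.39 and 2.25 in the knockout and 2.34, 2.55 and 2.05 in the control arrays, under the dim limit throughout. Its sign changed without knockout replicate 1 or without control replicate 2.

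**Figure D2:**
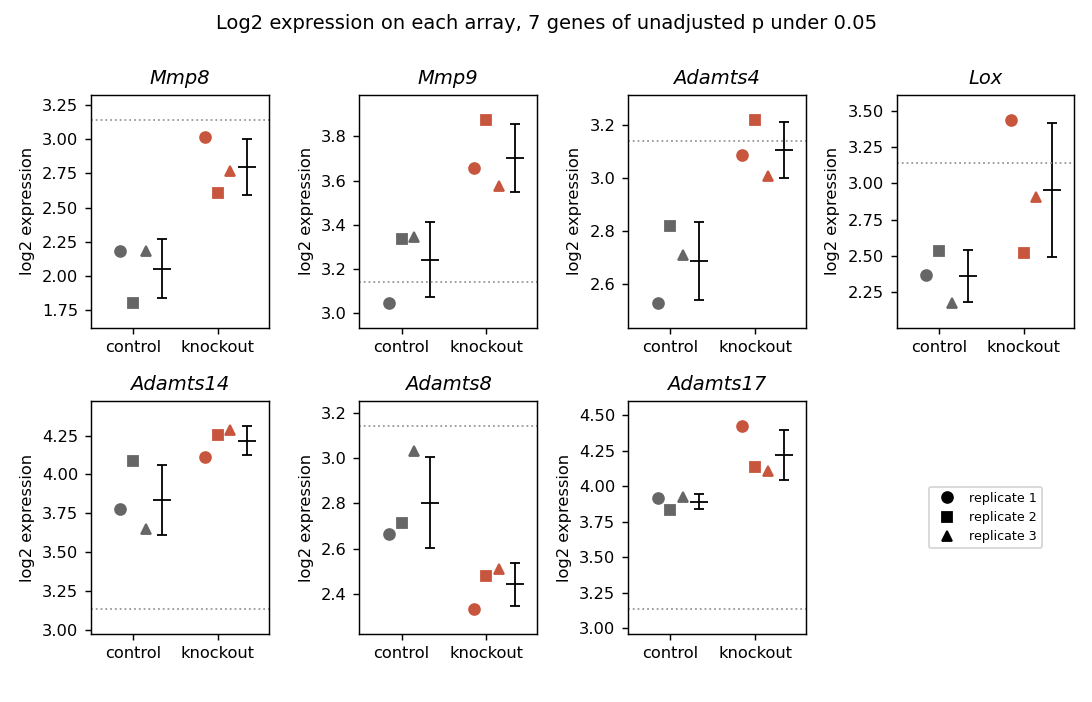
Log2 expression (y axis, a scale per panel) on each control and knockout array for the 7 genes of unadjusted p under 0.05, with the mean and SD of 3 arrays beside the points and the dim limit of 3.14 as a dotted line. Groups do not overlap except for Lox, and Mmp8 and Adamts8 lie wholly under the dim limit.

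Among the stromelysins and matrilysin, none reached an unadjusted p of 0.05. Mmp10, stromelysin 2, lay at 3.45, 3.75 and 3.71 in the knockout and at 3.64, 3.21 and 3.28 in the control arrays, and the difference was 0.26 (SE 0.16, limma adjusted p = 0.593). Mmp3, stromelysin 1, differed by 0.24 (SE 0.16, limma adjusted p = 0.630) under the dim limit. For Mmp11, stromelysin 3, the 2 probe sets disagreed in direction. The brighter lay at 3.31, 3.80 and 3.44 in the knockout and at 3.80, 3.82 and 3.60 in the control arrays (difference -0.22, SE 0.16, limma adjusted p = 0.657), while the dimmer gave a positive difference, so no direction is given for this gene.

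The membrane-anchored MMPs act at the cell surface. Mmp14, which activates the Mmp2 precursor, lay at 6.69, 7.06 and 6.82 in the knockout and at 6.76, 6.51 and 6.36 in the control arrays. Knockout replicate 1 was below control replicate 1, so the groups overlapped. The difference was 0.31 (SE 0.16, 95% interval -0.05 to 0.67, unadjusted p 0.0796, limma adjusted p = 0.527), and after a second quantile normalization it was 0.37 with an unadjusted p of 0.0363 in limma.

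Mmp24 lay at 3.74, 3.83 and 3.71 in the knockout and at 4.06, 4.25 and 3.82 in the control arrays, with a difference of -0.29 (SE 0.15, limma adjusted p = 0.528). Mmp25, known from leukocytes, lay at 2.40, 2.51 and 2.59 in the knockout and at 2.31, 2.19 and 2.31 in the control arrays. All knockout values were above the controls, but the difference was only 0.23 (SE 0.13, limma adjusted p = 0.554) and dim. Mmp23 differed by 0.19 (SE 0.15, limma adjusted p = 0.684).

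Of the remaining MMPs, Mmp20, the enamel protease, lay at 2.39, 2.70 and 2.65 in the knockout and at 2.96, 2.84 and 2.86 in the control arrays. Every knockout value was below every control value, with a difference of -0.31 (SE 0.14, unadjusted p 0.0507, limma adjusted p = 0.476), all under the dim limit. Mmp27 lay at 3.58, 3.48 and 2.77 in the knockout and at 2.58, 3.18 and 2.79 in the control arrays. Knockout replicate 3 lay among the controls, and without it the difference moved from 0.42 (SE 0.24, limma adjusted p = 0.561) to 0.68. Without knockout replicate 1 it was 0.27 and without control replicate 1 it was 0.29.

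The other 9 MMP genes (Mmp1a, Mmp1b, Mmp7, Mmp12, Mmp16, Mmp17, Mmp19, Mmp21 and Mmp28) had differences between -0.11 and 0.10 and unadjusted p-values in limma of at least 0.504. Their 95% intervals together reached from -0.51 to 0.47. Of these, Mmp19 was measured well above the dim limit, at 7.13, 6.92 and 7.34 in the knockout and 6.92, 7.07 and 7.19 in the control arrays, and its difference of 0.07 was -0.04 without knockout replicate 3.

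The groups overlapped for all 4 inhibitors. Timp1, an inhibitor that activated stellate cells are known to make in fibrosis, lay at 2.73, 2.13 and 2.82 in the knockout and at 2.59, 2.29 and 2.00 in the control arrays, under the dim limit on every array. Knockout replicate 2 was below 2 of the controls. The difference was 0.27 (SE 0.22, 95% interval -0.22 to 0.76, limma adjusted p = 0.701), which leaves an increase of up to 1.69-fold possible, and without knockout replicate 2 it was 0.49 with an unadjusted p of 0.0327 in limma. Without control replicate 3 it was 0.12, and without knockout replicate 3 it was 0.14.

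Timp2, which also takes part in Mmp2 activation by Mmp14, lay at 4.84, 5.14 and 5.28 in the knockout and at 4.97, 4.31 and 4.73 in the control arrays. The groups overlapped through control replicate 1, and the difference was 0.42 (SE 0.19, 95% interval -0.02 to 0.86, unadjusted p 0.0581, limma adjusted p = 0.489). Leaving out 1 array gave 0.24 (without control replicate 2) to 0.57 (without control replicate 1), and after a second quantile normalization it was 0.46 with an unadjusted p of 0.0390 in limma.

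Timp3, which binds to the matrix and also inhibits ADAMTS and ADAM proteases, lay at 4.28, 5.33 and 5.01 in the knockout and at 5.26, 5.06 and 5.27 in the control arrays. Knockout replicate 1 stood below all other arrays, and without it the difference of -0.32 (SE 0.24, limma adjusted p = 0.667) was -0.03. Without knockout replicate 2 it was -0.55. Timp4 lay at 2.22, 1.66 and 2.53 in the knockout and at 2.18, 1.98 and 2.35 in the control arrays, with a difference of -0.03 (SE 0.22, limma adjusted p = 0.970) under the dim limit. Thus 2 of the 4 inhibitors had differences above 0 and 2 below, and the values within the knockout group spread more than those of the controls (median SD 0.41 against 0.24). The knockout spread was also the wider over all genes (median SD 0.19 against 0.15).

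**Figure D3:**
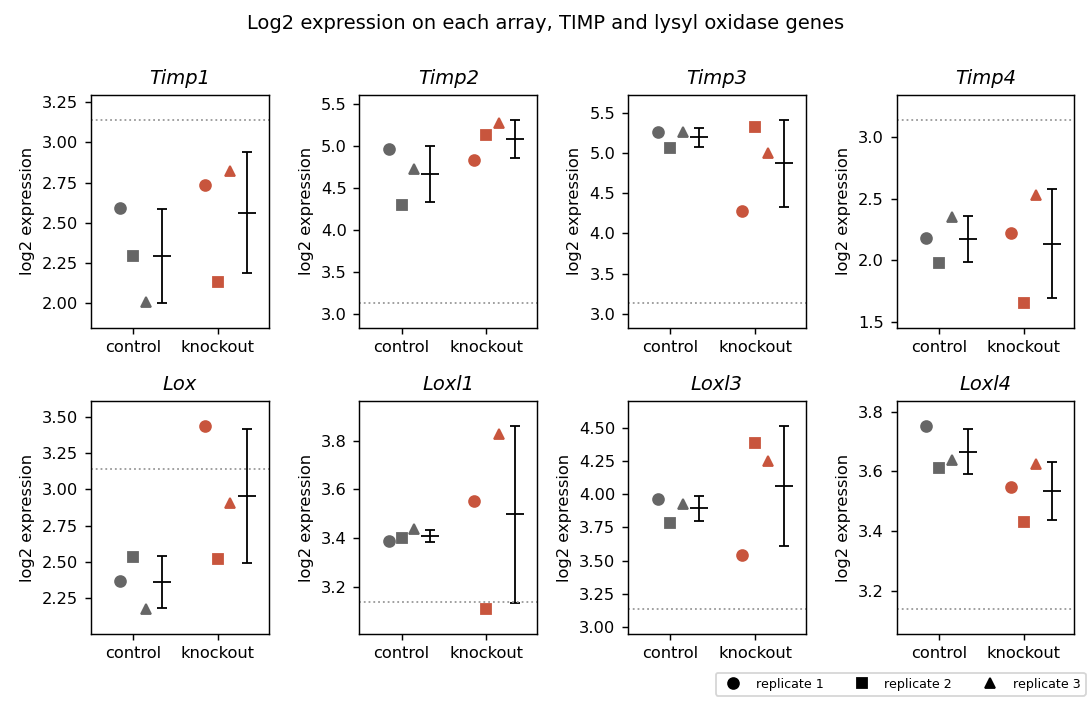
Log2 expression (y axis, a scale per panel) on each control and knockout array for the 4 TIMP and 4 lysyl oxidase genes, with mean and SD of 3 arrays and the dim limit of 3.14 as a dotted line. The groups overlap in all 8 panels, and for Timp3, Timp4, Loxl1 and Loxl3 the knockout values reach both above and below all controls.

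Of the 18 ADAMTS genes, 4 were at an unadjusted p under 0.05 (22.2%, beside 10.5% of all genes), and Adamts14 and Adamts8 among them were not called with the other probe set. Adamts4, an aggrecanase that cuts proteoglycans and is known to respond to inflammatory cytokines, lay at 3.09, 3.22 and 3.01 in the knockout and at 2.53, 2.82 and 2.71 in the control arrays. The groups did not overlap, but only knockout replicate 2 was above the dim limit. The difference was 0.42 (SE 0.14, 1.34-fold, 95% interval 0.11 to 0.73, unadjusted p 0.0131, limma adjusted p = 0.353).

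Adamts8 lay at 2.34, 2.48 and 2.51 in the knockout and at 2.66, 2.71 and 3.03 in the control arrays. The knockout values were all below the controls (difference -0.36, SE 0.14, unadjusted p 0.0340, limma adjusted p = 0.429), but the second, dimmer probe set of this gene differed by 0.22. No direction is therefore given for Adamts8.

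Adamts5, the other main aggrecanase, lay at 1.90, 2.74 and 2.36 in the knockout and at 2.45, 2.61 and 2.63 in the control arrays, with a difference of -0.23 (SE 0.20, limma adjusted p = 0.724), and the difference was -0.01 without knockout replicate 1 and -0.43, with an unadjusted p of 0.0380 in limma, without knockout replicate 2. Adamts1, its neighbour on the chromosome and a protease of versican, lay at 4.18, 5.29 and 4.39 in the knockout and at 4.59, 4.78 and 4.64 in the control arrays. Knockout replicate 2 was the highest array for both genes and the other knockout arrays the lowest. Without knockout replicate 2 the difference of Adamts1 moved from -0.05 (SE 0.26, limma adjusted p = 0.964) to -0.38 with an unadjusted p of 0.0319 in limma, and without knockout replicate 1 it was 0.17. Adamts9, another versican protease, lay at 4.09, 4.27 and 4.0 in the knockout and at 3.64, 3.98 and 3.96 in the control arrays. Its groups did not overlap, by a narrow gap, and the difference was 0.26 (SE 0.15, limma adjusted p = 0.564).

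Adamts14 and Adamts3 remove the amino-terminal propeptide of procollagens. Adamts14 lay at 4.11, 4.25 and 4.29 in the knockout and at 3.78, 4.09 and 3.65 in the control arrays, so that the lowest knockout value was just above the highest control value. The difference was 0.38 (SE 0.15, unadjusted p 0.0313, limma adjusted p = 0.425), and the second probe set, with values of 3.14, 3.30 and 3.25 against 3.53, 3.17 and 3.51, differed by -0.18. No direction is given for Adamts14 either. Adamts3 differed by 0.26 (SE 0.16, limma adjusted p = 0.600) under the dim limit.

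Adamts17, which is known to act on fibrillin microfibrils, lay at 4.42, 4.13 and 4.11 in the knockout and at 3.92, 3.83 and 3.92 in the control arrays. All knockout values were above the controls, the difference was 0.33 (SE 0.14, 1.26-fold, unadjusted p 0.0386, limma adjusted p = 0.439), and this gene has 1 probe set. Adamts10 differed by -0.23 (SE 0.19, limma adjusted p = 0.712). Adamts13, the protease of von Willebrand factor that stellate cells make, lay at 3.98, 4.17 and 4.04 in the knockout and at 3.52, 4.10 and 3.77 in the control arrays, with a difference of 0.27 (SE 0.17, limma adjusted p = 0.599). Adamts19 differed by -0.17 (SE 0.13, limma adjusted p = 0.687). The other 7 ADAMTS genes (Adamts6, Adamts7, Adamts12, Adamts15, Adamts16, Adamts18 and Adamts20) had differences between -0.26 and 0.09, and 4 of them were dim.

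Lox, the founding lysyl oxidase, lay at 3.43, 2.52 and 2.91 in the knockout and at 2.37, 2.53 and 2.18 in the control arrays. Knockout replicate 2 lay just under control replicate 2, and only knockout replicate 1 was above the dim limit. The difference was 0.59 (SE 0.22, 1.51-fold, 95% interval 0.09 to 1.09, unadjusted p 0.0249, limma adjusted p = 0.403). Single arrays moved it from 0.35, without knockout replicate 1, to 0.81, without knockout replicate 2.

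Loxl1, needed for elastic fibres, lay at 3.55, 3.11 and 3.83 in the knockout and at 3.39, 3.40 and 3.44 in the control arrays, with knockout values on both sides of the controls and a difference of 0.09 (SE 0.18, limma adjusted p = 0.893). Loxl3 lay at 3.55, 4.38 and 4.25 in the knockout and at 3.96, 3.79 and 3.93 in the control arrays. Knockout replicate 1 was the lowest of the 6, and without it the difference moved from 0.17 (SE 0.21, limma adjusted p = 0.814) to 0.42 with an unadjusted p of 0.0173 in limma. Without knockout replicate 2 it was 0.0043, and without knockout replicate 3 it was 0.07. Loxl4 lay at 3.55, 3.43 and 3.62 in the knockout and at 3.75, 3.61 and 3.64 in the control arrays, with a difference of -0.13 (SE 0.13, 95% interval -0.42 to 0.15, limma adjusted p = 0.749). The order of the knockout arrays differed between these genes: replicate 1 was the highest for Lox and the lowest for Loxl3, and replicate 2 was the lowest for Lox, Loxl1 and Loxl4 and the highest for Loxl3.

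Partners of these proteins were read from lists of the same pathway. In the plasminogen system and among the regulators of MMPs, 3 of 14 measured genes were at an unadjusted p under 0.05 (21.4%, beside 10.5% of all genes), all higher, and 0 passed the adjusted threshold in limma. These were Serpinf2, the plasmin inhibitor (10.6, 10.8 and 10.7 against 10.3, 10.4 and 10.3, difference 0.35, limma adjusted p = 0.385), Cd44, a receptor that docks Mmp9 (0.42, 0.407), and Plg, the plasmin precursor (0.31, 0.430). The median of the 14 was 0.08. Among the 13 ADAM proteases, 1 was higher at that level (7.69%), Adam23 (difference 0.42, limma adjusted p = 0.442), and the median was 0.08.

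Among 20 genes of procollagen processing and cross-linking, 1 was higher at an unadjusted p under 0.05 and 0 were lower (5%, beside 10.5% of all genes). The 1 gene was Crtap, a partner of prolyl 3-hydroxylase (difference 0.45, limma adjusted p = 0.468). The median of the 20 was 0.09. Of 7 ADAMTS-like genes, which lack the protease domain, 0 reached that level in limma, and the median was -0.05. Of 19 matrix proteins that these enzymes cut or cross-link, 19 had differences above 0 (100%, beside 50.2% of all genes) with a median of 0.22. At an unadjusted p under 0.05 were 3 (15.8%, beside 10.5% of all genes). Col3a1, type III collagen, lay at 5.26, 5.49 and 5.43 in the knockout and at 4.70, 4.43 and 4.48 in the control arrays (difference 0.86, SE 0.14, limma adjusted p = 0.130). Col1a2 differed by 0.60 (SE 0.19, 0.346) and the fibronectin gene Fn1 by 0.36 (SE 0.13, 0.387). Col1a2 has 2 probe sets, and the values of the dimmer one are not given here. Col1a1 differed by 0.13 (SE 0.17, limma adjusted p = 0.827), with overlapping groups. The elastin gene Eln, a substrate of the lysyl oxidases, differed by 0.07 (SE 0.17, limma adjusted p = 0.907), and 0 of the 19 passed the adjusted threshold. Of 9 markers of activated stellate cells or myofibroblasts, Col1a1, Col1a2 and Col3a1 included, 6 differences were above 0 and 3 below. At an unadjusted p under 0.05, 3 were higher and 1 lower (44.4%, beside 10.5% of all genes). The lower 1 was Acta2 (difference -0.39, limma adjusted p = 0.413).

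Knockout replicate 2 held the highest value of the 6 arrays for 16 of the 48 genes, more than any other array. The other knockout arrays held it for 12 and 8 and the controls for 2 to 5. The lowest value was on knockout replicates 1 to 3 for 7, 9 and 10 genes and on control replicates 1 to 3 for 5, 8 and 9. The share over all genes was not counted, and over all genes the knockout arrays spread more (median SD 0.19 against 0.15). On knockout replicate 2 the median deviation from the control mean was 0.12 for the 48 genes and 0.53 for 11 stellate cell markers. It was 0.76 for 10 sinusoidal endothelial markers, 1.53 for the 12 macrophage markers and 0.38 for the 19 matrix proteins. On knockout replicates 1 and 3 it was 0.08 and 0.02 for the 48 genes, -0.06 and 0.05 for the stellate cell markers and -0.06 and 0.02 for the endothelial markers. For the macrophage markers it was 0.73 and 0.34. For the 19 matrix proteins it was 0.19 and 0.13, with control replicate 1 at 0.16. The part of these cell types in the values of the 48 genes was not tested. For the 6 smooth muscle markers the median deviation was -0.23, -0.22 and -0.25 on knockout replicates 1 to 3. On control replicates 1 to 3 it was -0.095, 0.067 and 0.050. Of these 6 markers 3 were dim, and 5 differences were below 0 and 1 above. At an unadjusted p under 0.05, 2 were lower (33.3%, beside 10.5% of all genes).

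**Figure D4:**
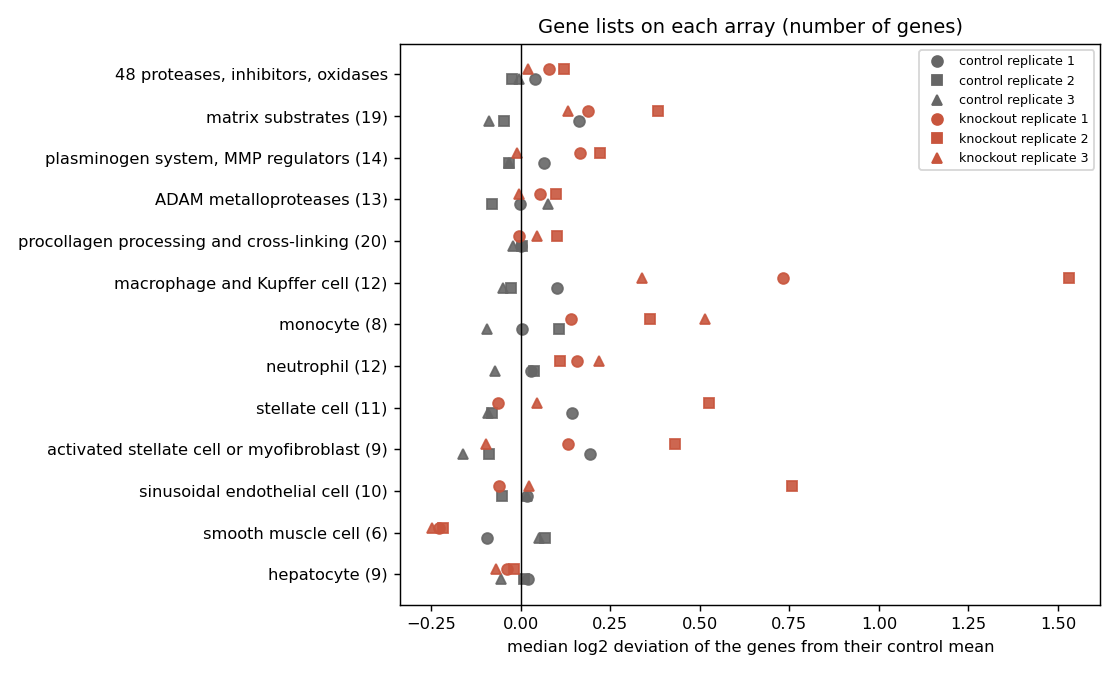
Median log2 deviation of the genes of each list from their control mean (x axis) on each array, with the number of genes in brackets, control arrays in grey and knockout arrays in red. The 48 genes lie at 0.08, 0.12 and 0.02 on knockout replicates 1 to 3, while the macrophage markers lie at 0.73, 1.53 and 0.34.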

How the data were processed

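Total liver RNA (100 ng per labelling, per the labels' protocols) was measured on Affymetrix whole-transcript arrays. The submitters' processing notes name RMA and Affymetrix Expression Console 1.4.1. The deposited table holds log2 values of 41345 probe sets on 6 arrays. Because RMA equalises the distributions, a shift of most transcripts would not show. The sources used here give no genome build. Of the probe sets, 23521 had 1 gene symbol in the platform annotation, 1814 several and 16010 were not listed there. For 1082 genes with several probe sets, the one with the highest mean was used. Differences between the 3 knockout and 3 control arrays were fitted over 22180 genes in limma 3.58.1 (R 4.3.3, lmFit and eBayes), 2-sided, with Benjamini-Hochberg adjustment over all genes. The fit was tested on simulated data. Arrays give no read depth, so their number limits the precision.

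The genes and lists were chosen with earlier results of these data known. Values on every array are given for the TIMP and lysyl oxidase genes, the 14 other genes of lowest p and those whose probe sets disagree; further genes were named after their values were seen. From each partner list up to 5 genes at an unadjusted p under 0.05 are named, beside Eln, Col1a1 and single markers. All 48 symbols matched the RefSeq gene table. Alternatives were other normalizations, a filter on dim probe sets, other variance priors, other probe sets, a replicate block and leaving out each array.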

Additional observations from a re-analysis of the deposited data

Results flagged for a closer look

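The second, dimmer probe set of Mmp11 was not used in the comparison and held a signal above the control level. It lay at 3.21, 2.91 and 3.08 in the knockout and at 2.60, 2.57 and 2.59 in the control arrays, a log2 difference of 0.48 (SE 0.13, unadjusted p 0.00494, limma adjusted p = 0.304), while the brighter probe set gave -0.22. This probe set was picked because every knockout value lay above every control value. That separation is therefore no separate observation, and the p-value was read after the choice. In the other unused probe sets, those of Mmp7, Adamts8 and Adamts14, the groups overlapped. For the dimmer Mmp11 probe set, 5 of the 6 values were under the dim limit of 3.14. The cause of the disagreement between the Mmp11 probe sets was not tested.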

How the results depend on the processing

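None of the 48 genes passed the adjusted threshold under any of the 14 alternatives (limma, 0 each time). The number at an unadjusted p under 0.05 was 7 (14.6%, beside 10.5% of all genes). It was 11 after a second quantile normalization (22.9%, beside 9.99%) and 3 of 26 with the filter on dim probe sets (11.5%, beside 14%). When 1 array was left out it lay between 5 and 12 (10.4% to 25%, beside 6.96% to 12.3% of all genes). The median difference lay between 0.0049 and 0.10 when 1 array was left out, lowest without knockout replicate 2. Over all genes, 0 passed in the report's fit, 15 with the dim filter, 25 with a variance prior that follows intensity, 1 with the replicate block and 0 to 66 when 1 array was left out (66 without knockout replicate 3, 3 without control replicate 3). Over all 48 genes, 613 of 650 differences under the alternatives kept their sign. Of the 37 that did not, 27 belong to the 16 genes described only together or in passing, Mmp12 and Mmp19 included. The other 10 were Mmp11 with the mean of its probe sets (0.13) and the dimmer one (0.48), Adamts14 (-0.18) and Adamts8 (0.22) with the dimmer one, and, when 1 array was left out, Adamts1 (-0.38 to 0.17), Timp4 (-0.23 to 0.21) and Loxl1 (-0.076 to 0.28). The causes were not tested.

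Deviations from the group mean correlated across genes at 0.0064, 0.053 and 0.015 between samples of the same replicate number. Between different numbers the correlations ran from -0.0455 to 0.0293. Knockout replicate 3 and control replicate 1 correlated best with each other, and the other arrays with their own number. The correlations were small, and the numbers are not taken as pairs. With the replicate block 6 of the 48 genes were at an unadjusted p under 0.05 (12.5%, beside 10.6% of all genes). With 3 arrays per group the 95% intervals of 28 of the 48 genes reached beyond 1.5-fold, and 22 of the 48 genes had means under the dim limit, which is the median of all values and not a measured background.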
